A study of Mus musculus with 12 samples.

Results

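The genes of the dystrophin complex and its muscle-membrane neighbours were followed in soft tissue from beside the spine of mice, with and without surgery. The set held 8 of the 18996 genes in the deposited count table, namely *Dmd*, *Utrn*, *Sgca*, *Sgcb*, *Sgcd*, *Aqp4*, *Cav3* and *Nos1*. They were picked by symbol with their values in all 12 mice already known, so their levels and differences are given as a description and no p-value is attached to them. All 8 passed the filter on low counts. The study covered 12 BALB/c mice aged 5 to 7 weeks, 4 in each of 3 groups, and each mouse gave 1 RNA-seq library. No operation mice gave intact paraspinal soft tissue. In SHAM mice this soft tissue was removed and the lamina was left in place, whereas in Laminectomy mice the lamina was excised too. Samples of both surgical groups held scar together with soft tissue and were taken on day 7 after surgery. Both sexes were used in the study, and the sex of each sample was not given in the sources used here.

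Dystrophin, the product of *Dmd*, ties the actin cytoskeleton beneath the muscle fibre membrane to dystroglycan, which in turn holds laminin outside the fibre. The sarcoglycans (*Sgca*, *Sgcb* and *Sgcd* among them) form a tight subcomplex that keeps dystroglycan in place, and utrophin, encoded by *Utrn*, is a close relative of dystrophin found at the neuromuscular junction, in immature fibres and in many cells outside muscle. Neuronal nitric oxide synthase (*Nos1*) and the water channel aquaporin 4 (*Aqp4*) dock on the complex through syntrophin, while caveolin 3 (*Cav3*) coats the caveolae of the same membrane. Aquaporin 4 is abundant in fast muscle fibres and also in the end feet of astrocytes in the brain and spinal cord.

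On the GRCm38 build, 7 of the genes are placed as follows: *Dmd* (gene 13405) lies at chrX:82814664-85205050, *Utrn* (22288) at chr10:12382187-12869888, *Sgca* (20391) at chr11:94962777-94976327, *Sgcb* (24051) at chr5:73632749-73647737, *Sgcd* (24052) at chr11:46971077-47989451, *Cav3* (12391) at chr6:112459505-112472872 and *Nos1* (18125) at chr5:117866839-117958840. RefSeq promoter windows of GRCm38.p6 were matched for 7 of the 8 genes. In the 250 bases before each start, on both strands, 4 motifs of muscle promoters were searched: the E-box CAGCTG, the MEF2 core CTANNNNTAG, the N-box TTCCGG and the CArG box. The starts are those of the RefSeq windows, and for *Dmd*, *Utrn* and *Sgcd* they lie inside the gene coordinates given above. No match overlapped another. The window of *Cav3*, the gene whose level after surgery overlapped that of intact tissue, and the upstream window of *Dmd* are shown because they held the only matches, which stand in capitals (an E-box in *Cav3* and a CArG box in *Dmd*).
Cav3, chr6:112459255-112459504, plus strand: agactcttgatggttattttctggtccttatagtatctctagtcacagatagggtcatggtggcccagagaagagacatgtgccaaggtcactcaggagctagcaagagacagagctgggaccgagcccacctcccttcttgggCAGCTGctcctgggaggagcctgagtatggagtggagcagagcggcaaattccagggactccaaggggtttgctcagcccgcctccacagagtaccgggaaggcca
Dmd, chrX:82948620-82948869, plus strand: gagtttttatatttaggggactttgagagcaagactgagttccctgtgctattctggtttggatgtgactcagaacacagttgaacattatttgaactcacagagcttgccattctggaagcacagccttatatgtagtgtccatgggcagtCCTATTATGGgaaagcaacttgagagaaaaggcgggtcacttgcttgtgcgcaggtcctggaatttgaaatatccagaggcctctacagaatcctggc
The E-box of *Cav3* spanned bases 106 to 101 before the start, and the CArG box of *Dmd* spanned bases 98 to 89. Among 32851 windows of the same length, 13% held the E-box, 1.47% the CArG box, 3.2% the MEF2 core and 12% the N-box, so a match is a description of the letters and no more.

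Depth was even, with 16803002 to 18077873 counts per mouse, and levels are given as CPM, a gene's share of the counts of its library after TMM scaling, which evens out libraries of different composition. Of 14765 genes tested, 50.8% were called in SHAM against No operation mice (25.7% higher and 25.1% lower) and 48.6% in Laminectomy against No operation mice (24.2% higher and 24.4% lower). A call required a Benjamini-Hochberg adjusted p under 0.05 in edgeR together with a log2 fold change past 0.5 in either direction, and both comparisons use the same No operation mice. The tissue label held against muscle markers. A list of 20 mature myofibre genes, among them *Acta1*, *Ckm* and *Myh4*, summed to 127100 to 179300 CPM in No operation mice, 3106 to 13240 in SHAM mice and 4622 to 18740 in Laminectomy mice, and all 20 were called lower in both surgical groups. In bulk tissue, fewer muscle fibres and less RNA per fibre cannot be told apart. Several libraries stood apart. SHAM 1 had the lowest myofibre sum, and its 7 regenerating myofibre genes, which include *Myog* and *Mymk*, summed to 4.55 CPM against 1243 to 2149 CPM in the other SHAM mice, 1345 to 2153 in Laminectomy mice and 47.5 to 90.5 in No operation mice. Laminectomy 1 had the lowest myofibre sum of its group. Laminectomy 2 and 3 carried genes of the central nervous system, as described with *Aqp4*.

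After surgery, 7 of the 8 genes were lower in every mouse than in any No operation mouse, in SHAM and in Laminectomy alike, and *Cav3* overlapped. Among all genes tested, 27.8% were lower without overlap in SHAM and 29.0% in Laminectomy, values that stand beside the counts as background, since the genes were chosen with this contrast known. The depth of the difference ran from below 2-fold for *Utrn* to over 100-fold for *Aqp4* in SHAM mice. The plot of CPM by mouse shows how far each gene stood from its intact level.

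**Figure D1:**
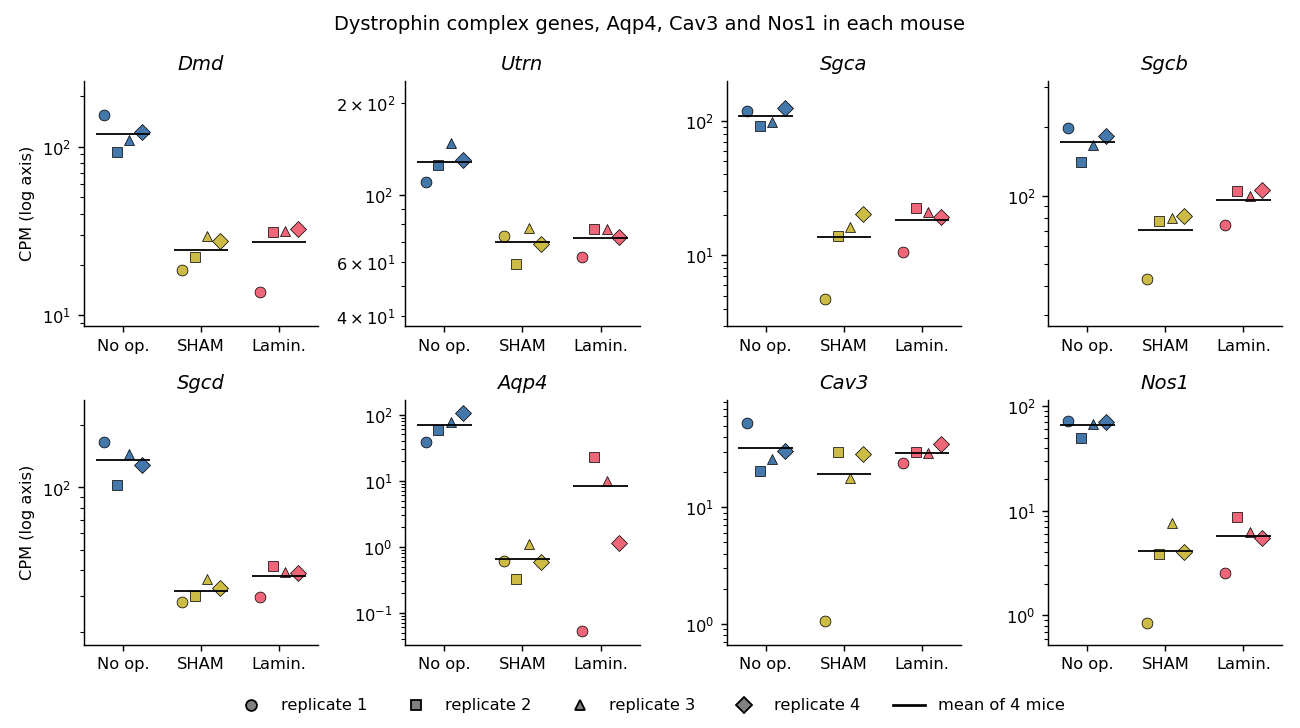
CPM of the 8 genes (log axis, a scale of its own in each panel) in 4 No operation, 4 SHAM and 4 Laminectomy mice. Symbols mark the replicate number and bars the group mean. For 7 genes the surgical mice lie below all No operation mice, *Cav3* overlaps, with SHAM 3 just under the No operation range and SHAM 1 far under it at 1.07 CPM, and *Aqp4* in Laminectomy mice spreads from 0.0529 to 22.7 CPM.

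In No operation mice 1 to 4, *Dmd* stood at 153, 92.9, 109 and 122 CPM. Levels after SHAM surgery were 18.6, 22.3, 29.4 and 27.6 CPM, and those after Laminectomy were 13.8, 31.4, 31.8 and 32.5 CPM. The surgical groups lay side by side, and Laminectomy 1 was the lowest mouse of all. Means were 119 ± 25.6 CPM in No operation (SD, n = 4), 24.5 ± 4.96 in SHAM and 27.4 ± 9.05 in Laminectomy mice, 4.87-fold and 4.36-fold lower than in intact tissue. On the log2 scale these differences were -2.29 (standard error 0.269) and -2.12 (standard error 0.268).

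*Utrn* showed the smallest drop among the 7 genes without overlap in SHAM mice. Intact tissue gave 110, 126, 148 and 130 CPM, SHAM tissue 73.1, 59.3, 78.1 and 69.0 CPM and Laminectomy tissue 62.3, 77.5, 77.0 and 72.5 CPM. Group means of 129 ± 15.4, 69.9 ± 7.97 and 72.3 ± 7.05 CPM (SD, n = 4 each) gave log2 differences of -0.88 (standard error 0.117) and -0.83 (standard error 0.117) for SHAM and Laminectomy. Mice of a group lay close together, with a coefficient of variation of 9.74% to 11.99%.

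The sarcoglycans did not keep a common level. *Sgca*, which encodes the α-sarcoglycan of striated muscle, was at 118, 91.6, 99.0 and 124 CPM without surgery, 4.78, 13.9, 16.2 and 20.2 CPM after SHAM and 10.5, 22.6, 21.1 and 19.4 CPM after Laminectomy. The mean was 7.84-fold lower in SHAM mice (log2 -2.97, standard error 0.374) and 5.87-fold lower in Laminectomy mice (log2 -2.55, standard error 0.367). SHAM 1 and Laminectomy 1 were the lowest of their groups, and without SHAM 1 the SHAM difference was -2.69.

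*Sgcb*, encoding β-sarcoglycan, which tissues other than striated muscle also make, had a smaller difference. Without surgery it was at 199, 141, 166 and 183 CPM, after SHAM at 42.8, 77.1, 79.9 and 81.5 CPM and after Laminectomy at 74.0, 105, 99.4 and 105 CPM. The log2 differences were -1.29 (standard error 0.203, 2.45-fold lower) and -0.84 (standard error 0.201, 1.79-fold lower). SHAM 1 and Laminectomy 1 were again the lowest of their groups, each well under the other 3 mice.

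*Sgcd*, which encodes δ-sarcoglycan, had 166, 103, 145 and 129 CPM in intact tissue, 27.9, 29.8, 36.3 and 32.6 CPM after SHAM and 29.7, 41.7, 38.9 and 38.7 CPM after Laminectomy. Its difference, 4.29-fold lower in SHAM (log2 -2.10, standard error 0.159) and 3.65-fold lower in Laminectomy mice (log2 -1.87, standard error 0.157), lay between those of *Sgcb* and *Sgca*. In SHAM mice its coefficient of variation was 11.5% against 47.5% for *Sgca*, while in No operation mice it was 19.7% against 14.1%.

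*Cav3* was the only member whose surgical mice overlapped intact tissue. Its level was 52.4, 20.3, 25.98 and 30.6 CPM in intact tissue, 1.07, 29.7, 17.95 and 28.5 CPM after SHAM and 23.8, 29.8, 29.0 and 34.98 CPM after Laminectomy. All 4 Laminectomy mice and 2 of 4 SHAM mice lay within the No operation range, SHAM 3 lay just under it, and SHAM 1, with 19 counts, lay far below. The log2 difference from No operation was -0.74 in SHAM (standard error 0.633) and -0.14 in Laminectomy (standard error 0.627), each close to or within its error. Without SHAM 1 the SHAM value was -0.35, and the Laminectomy value turned to 0.20 without No operation 1 or with library size alone in place of TMM. Low *Cav3* in SHAM 1 went with the near absence of regenerating myofibre genes in that mouse, whose part in the value was not tested.

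*Nos1* was at 72.2, 49.7, 68.1 and 71.1 CPM without surgery, 0.843, 3.85, 7.63 and 4.06 CPM after SHAM and 2.54, 8.64, 6.32 and 5.53 CPM after Laminectomy. Of the 8 genes only *Aqp4* stood further below its intact level in SHAM mice. Means differed 15.9-fold for SHAM (log2 -3.99, standard error 0.519) and 11.3-fold for Laminectomy (log2 -3.50, standard error 0.505), and SHAM 1 and Laminectomy 1 were again the lowest mice. The antisense gene *Gm26995*, not in the count table, shares 268 exon bases with *Nos1* on the opposite strand, and since strand-aware counting is not stated in the sources used here, its reads may be among the *Nos1* counts.

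*Aqp4* (gene 11829, chromosome 18, bases 15389394 to 15410982) had the largest difference of the 8 in SHAM mice and the widest spread in Laminectomy mice. Intact tissue held 38.2, 58.0, 77.5 and 106 CPM. SHAM mice held 0.618, 0.321, 1.11 and 0.587 CPM, from 11, 6, 21 and 11 counts. In Laminectomy mice it was at 0.0529 CPM (1 count), 22.7 CPM (442 counts), 9.84 CPM (190 counts) and 1.15 CPM (22 counts). Laminectomy 1 and 4 thus lay near or below the SHAM mice, and Laminectomy 2 and 3 lay between SHAM and No operation. The SHAM mean was 104.5-fold below No operation (log2 -6.71, standard error 1.19), a rank of 2 from the lowest among 14765 genes. For Laminectomy the log2 difference was -3.05 (standard error 0.941), and *Aqp4* varied more among Laminectomy mice than 99.9% of the genes tested.

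The high *Aqp4* of Laminectomy 2 and 3 went with genes of astrocytes, oligodendrocytes and neurons. *Gfap*, the astrocyte filament, was at 52.7 and 18.1 CPM in these mice and at 0.140 to 1.6 CPM in the other 10. The glutamate transporter gene *Slc1a2* was at 61.0 and 22.3 CPM, *Kcnj10*, the potassium channel of astrocyte end feet, at 43.6 and 11.2 CPM, and the synaptic gene *Snap25* at 63.1 and 23.7 CPM. These 4 genes rank the mice alike, with Laminectomy 2 above Laminectomy 3. *Mlc1*, a membrane partner in astrocyte end feet, was at 7.71 and 1.76 CPM and at 0 in 9 of the other 10 mice. Summed over 13 such genes, named after their values were seen, the level was 401 and 109 CPM in Laminectomy 2 and 3 and 1.03 to 4.79 CPM in the other 10 mice.

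In No operation mice these 13 genes summed to at most 4.79 CPM while *Aqp4* was at 38.2 to 106 CPM. Over the whole list of 10 astrocyte and CNS glia genes, which also holds genes of other tissues, 6 passed the filter, with 0 called higher and 1 lower in SHAM and 2 higher (*Gfap* and *Slc1a2*) and 3 lower (*Slc1a3*, *Aldh1l1* and *Slc4a4*) in Laminectomy mice. *Slc1a3*, at 54.5 to 56.4 CPM in intact tissue, was at 30.3 and 25.3 CPM in Laminectomy 2 and 3. The list's sum was 136 to 155 CPM in No operation, 55.6 to 126 in SHAM and 41.2 to 242 in Laminectomy mice. The 8 neuronal genes, of which 2 passed (1 called higher in both groups and 1 lower in SHAM), summed to 8.63 to 15.4, 12.4 to 17.9 and 17.3 to 237 CPM, and 7 Schwann cell genes, with 1 called lower in Laminectomy mice and none in SHAM mice, summed to 286 to 417, 161 to 520 and 114 to 893 CPM. With Laminectomy 2 and 3 both left out, an alternative added after these values were seen, *Aqp4* averaged 0.600 CPM in the remaining mice, and its log2 difference was -6.84 from No operation and -0.13 from SHAM. With only Laminectomy 2 left out it was -4.24 from No operation. Whether spinal tissue supplied the *Aqp4* of Laminectomy 2 and 3 was not tested.

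**Figure D2:**
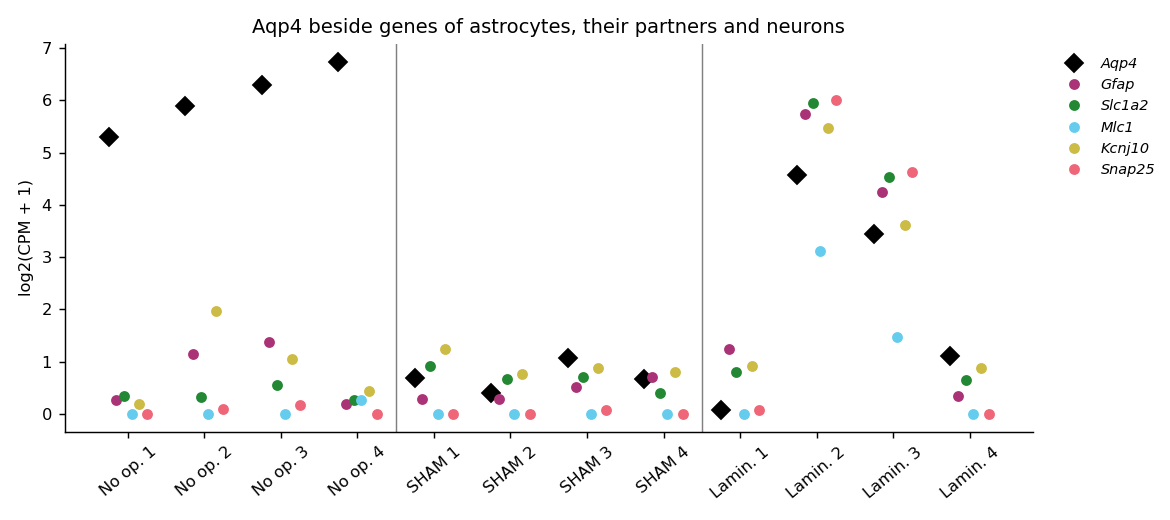
Level of *Aqp4* (diamonds) and of *Gfap*, *Slc1a2*, *Mlc1*, *Kcnj10* and *Snap25* (circles) in each mouse, as log2(CPM + 1). In No operation mice *Aqp4* is high with the other genes low, in SHAM mice and Laminectomy 1 and 4 all are low, and in Laminectomy 2 and 3 all are raised together.

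Set beside the mature myofibre genes, most members had smaller differences from intact tissue. The 20 mature myofibre genes had a median log2 difference from No operation of -4.09 in SHAM and -3.32 in Laminectomy mice, against -0.002 and 0.009 for all genes tested. Relative to that median, *Utrn* was higher by 3.21 in SHAM and 2.49 in Laminectomy, *Cav3* by 3.35 and 3.19, and *Sgcb* by 2.80 and 2.48 on the log2 scale. *Sgcd* and *Dmd* were nearer, at 1.99 and 1.80 in SHAM and 1.46 and 1.2 in Laminectomy, and *Sgca* at 1.12 and 0.77. *Nos1* lay close to the median, at 0.10 and -0.18. *Aqp4* lay 2.62 below the median in SHAM mice and 0.28 above it in Laminectomy mice, where leaving out Laminectomy 2 and 3 gave -3.15. Scaling by library size alone shifted both terms together and left, for *Utrn*, 3.18 and 2.48.

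**Figure D3:**
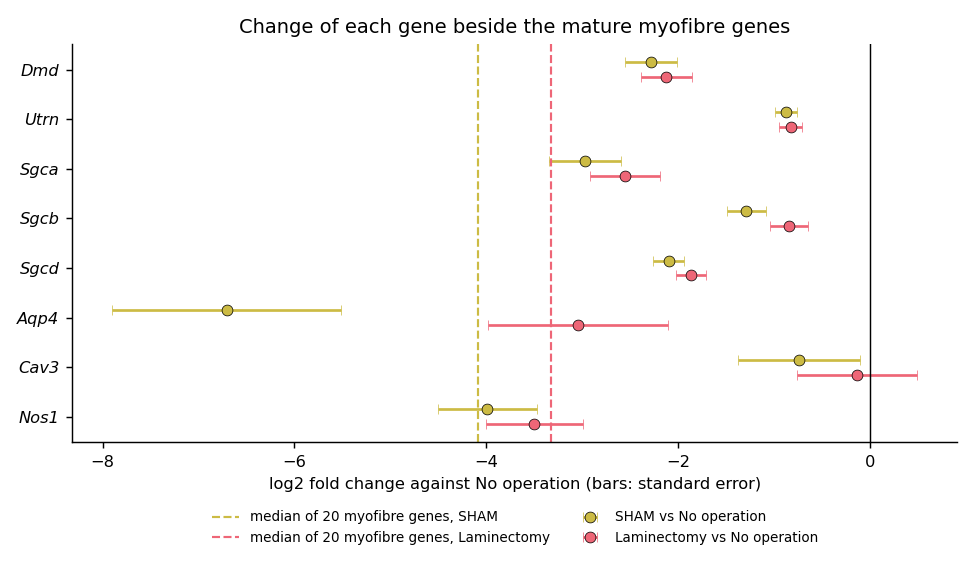
Log2 fold change of each gene against No operation in SHAM and Laminectomy mice with its standard error, beside the median of 20 mature myofibre genes (dashed lines at -4.09 and -3.32). *Utrn*, *Sgcb* and *Cav3* lie far right of the lines, *Nos1* on them, and *Aqp4* left of its line in SHAM only.

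Ratios taken within a mouse show how the make-up of the gene set differed, free of library scaling. The CPM ratio of *Utrn* to *Dmd* was 0.720 to 1.35 in No operation mice (median 1.21), 2.499 to 3.93 in SHAM mice (median 2.66) and 2.23 to 4.51 in Laminectomy mice (median 2.45), without overlap, and it was highest in SHAM 1 and Laminectomy 1. These ratios follow the change between groups and are not corrected for gene length. *Sgca* to *Sgcb* was 0.592 to 0.677 in No operation, 0.112 to 0.247 in SHAM and 0.142 to 0.215 in Laminectomy mice, and *Sgcd* to *Sgcb* was 0.704 to 0.875, 0.386 to 0.651 and 0.367 to 0.402. The ratio of *Cav3* to *Sgca*, at 0.222 to 0.445 in intact tissue, was 1.32 to 2.26 in Laminectomy mice and 0.224 to 2.14 in SHAM mice, where SHAM 1 alone stayed inside the intact range.

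**Figure D4:**
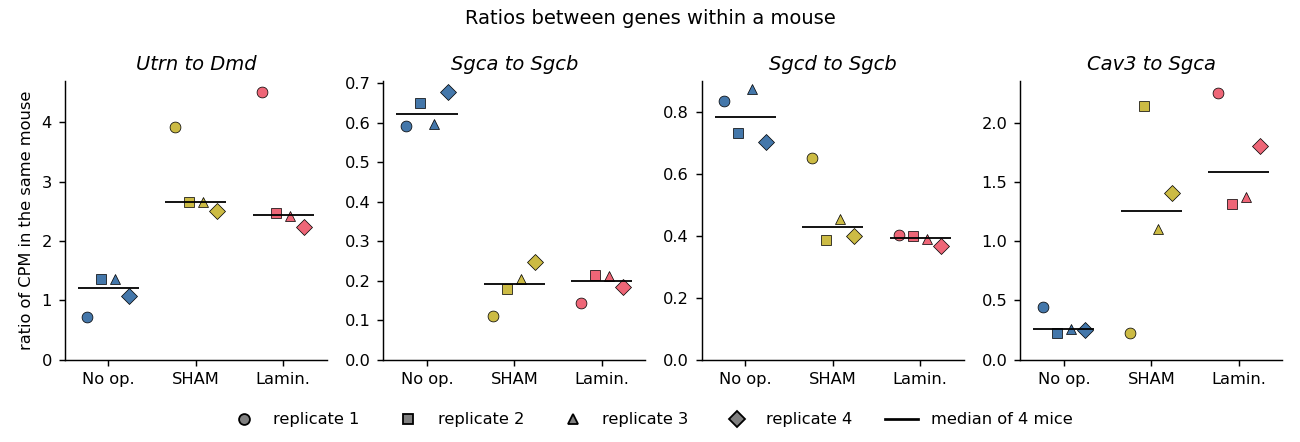
Ratios of CPM between gene pairs in each mouse, with the group median as a bar. *Utrn* to *Dmd* is higher and *Sgca* to *Sgcb* lower in all 8 surgical mice than in any No operation mouse, and SHAM 1 is the surgical mouse with a low *Cav3* to *Sgca* ratio.

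Levels of different genes were compared per kilobase of exon, from 1.16 kb for *Cav3* to 23.8 kb for *Dmd*. In No operation mice the order was *Sgca* (62.1 ± 8.74 CPM per kb, SD, n = 4), *Sgcb* (42.5 ± 6.11), *Cav3* (27.9 ± 12.1), *Sgcd* (16.4 ± 3.24), *Aqp4* (11.2 ± 4.61), *Utrn* (7.52 ± 0.901), *Nos1* (5.86 ± 0.945) and *Dmd* (5.01 ± 1.07). Only *Sgca* and *Sgcb* were neighbours whose mice did not overlap. In SHAM mice *Sgcb* (17.4 ± 4.55 CPM per kb) and *Cav3* (16.6 ± 11.4) led with overlapping values, followed by *Sgca* (7.90 ± 3.75), *Utrn* (4.08 ± 0.466) and *Sgcd* (3.83 ± 0.442), which also overlapped. *Dmd* (1.03 ± 0.208), *Nos1* (0.367 ± 0.249) and *Aqp4* (0.106 ± 0.0529) came last, and *Dmd* overlapped neither neighbour. In Laminectomy mice *Cav3* (25.3 ± 3.96 CPM per kb) and *Sgcb* (23.7 ± 3.67) overlapped at the top, *Sgca* (10.6 ± 3.10) overlapped neither neighbour, and *Sgcd* (4.51 ± 0.631), *Utrn* (4.23 ± 0.412), *Aqp4* (1.35 ± 1.68), *Dmd* (1.15 ± 0.380) and *Nos1* (0.516 ± 0.226) each overlapped the next. The α-sarcoglycan gene thus ranked 1 in intact tissue and 3 in both surgical groups. Lengths are those of all annotated exons joined, so a gene with many isoforms such as *Dmd* may be set too low.

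Laminectomy and SHAM mice, which differ in the excision of the lamina, overlapped for all 8 genes. Of all genes tested, 10.1% did not overlap between these groups. No gene passed the edgeR test (0.0% called, smallest adjusted p = 0.0698 by edgeR with Benjamini-Hochberg adjustment), while 2360 genes had an unadjusted p below 0.05 and DESeq2 called 601. The log2 difference of Laminectomy from SHAM was 0.05 for *Utrn*, 0.16 for *Dmd*, 0.24 for *Sgcd*, 0.42 for *Sgca*, 0.45 for *Sgcb*, 0.49 for *Nos1*, 0.61 for *Cav3* and 3.66 for *Aqp4*, and 0.58 for the median myofibre gene. That of *Aqp4*, with a standard error of 1.12, was -0.13 without Laminectomy 2 and 3. Laminectomy 1 kept some groups overlapping. Without it, *Dmd*, *Sgcb*, *Sgcd* and *Aqp4* were higher in every Laminectomy mouse than in any SHAM mouse, as were 9.96% of all genes. Some gaps were narrow. For *Aqp4* it was 22 counts in Laminectomy 4 against 21 in SHAM 3, and Laminectomy 2 and 3 carried genes of the central nervous system. For *Dmd* it was 31.4 CPM in Laminectomy 2 against 29.4 in SHAM 3.

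For each member, the 3 genes with the most similar course over the 12 mice were sought among 12561 genes, by the root mean square difference of log2(CPM + 1) after centring on No operation mice. *Sgcd* had the closest companion, *Zfp106* (0.07), ahead of *Golga4* (0.11) and *Kif1b* (0.12). *Utrn* lay nearest to *Dcun1d1* (0.09), *Ibtk* (0.10) and *Rev1* (0.10), and *Sgcb* to *Fam120c* (0.12), *Bin1* (0.13), which shapes muscle membrane tubules, and *Msi2* (0.15). *Sgca* was nearest to *Bves* (0.15), *Nexn* (0.19) and *Tmod1* (0.20), genes of the muscle membrane and thin filament, and *Dmd* to *Fyco1* (0.16), *Gyg* (0.17) and *Gstp2* (0.18). *Nos1* was nearest to *Synm* (0.22), an intermediate filament gene that is also in the costamere list, then *Asb16* (0.24) and *Trim54* (0.25). *Cav3* was nearest to *Cdh15* (0.35), the muscle cadherin of satellite cells, *Myl6b* (0.36) and *Lrrn1* (0.38). *Aqp4* had no close companion, the nearest being *Myh4* (0.82), the fast myosin of type IIb fibres, *Abra* (0.84) and the myostatin gene *Mstn* (0.85). Among the members themselves, *Dmd* and *Sgcd* were the closest pair (0.30) and *Aqp4* and *Cav3* the furthest apart (3.53).

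Beyond the 8 genes, 6 lists of related genes were tested in the same edgeR fit. They were written with earlier results of these data known, and their counts stand against 50.8% of all genes called in SHAM and 48.6% in Laminectomy mice. Of 13 other members of the complex, 11 passed the filter, and 7 were called lower and 2 higher in SHAM and in Laminectomy alike (medians -0.99 and -0.86). The syntrophin and dystrobrevin genes went both ways. *Dtna*, the α-dystrobrevin gene, fell from 107 ± 13.2 CPM to 22.6 ± 9.32 in SHAM and 36.05 ± 12.3 in Laminectomy mice (SD, n = 4 each, log2 -2.24 and -1.57, adjusted p = 0.000268 and 0.0026, edgeR). *Sntb2*, encoding β2-syntrophin, rose from 12.8 ± 3.54 CPM to 24.5 ± 3.91 in SHAM and 19.0 ± 1.16 in Laminectomy mice (log2 0.93 and 0.56, adjusted p = 0.000824 and 0.0167, edgeR), and *Dtnb*, encoding β-dystrobrevin, rose by 0.58 and 0.63 (adjusted p = 0.00378 and 0.00237, edgeR). *Dag1*, dystroglycan itself, fell by 1.03 and 0.86 on the log2 scale. Leaving out No operation 4 took the *Dtnb* change in SHAM to 0.48 and that of *Sntb2* in Laminectomy to 0.46, under the 0.5 threshold. The call of *Sntb1* in SHAM was lost without any of No operation 2, 3 or 4 or SHAM 1 or 2 (adjusted p 0.0513 to 0.101), and that of *Sgce* in Laminectomy without No operation 3 (log2 -0.47).

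Of 12 enzymes that build the laminin-binding sugar on dystroglycan, 6 were called lower in SHAM and 4 in Laminectomy mice, and none higher (medians -0.49 and -0.40). Of all genes, 25.1% and 24.4% were called lower and 25.7% and 24.2% higher. *Pomgnt2* fell from 22.9 ± 2.95 CPM to 5.94 ± 1.28 in SHAM and 7.43 ± 1.76 in Laminectomy mice (log2 -1.94 and -1.62, adjusted p = 1.7e-05 and 5.87e-05, edgeR). *B3galnt2* fell from 151 ± 30.4 to 43.6 ± 3.94 and 51.9 ± 12.01 CPM (log2 -1.80 and -1.54, adjusted p = 1.31e-05 and 3.77e-05, edgeR). The call of *B4gat1* in SHAM was lost without No operation 3 or 4 or SHAM 1 or 4 (log2 -0.44 to -0.48).

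Genes of caveolae and of membrane repair, 13 in all, went both ways, with 4 called higher and 6 lower in SHAM and 4 higher and 4 lower in Laminectomy mice. The 4 called lower in both groups were genes of the caveolar coat, while its genes *Cavin3* and *Cavin4* were not called in either. *Cavin2* fell from 206 ± 46.3 to 62.6 ± 20.6 and 54.1 ± 12.1 CPM (log2 -1.71 and -1.92, adjusted p = 0.000157 and 9.55e-05, edgeR), and *Cav2* by 1.01 and 1.03. The 4 called higher, in both groups, were *Myof*, the myoferlin gene, and 3 annexin genes. *Myof* rose from 90.9 ± 38.6 to 274 ± 44.7 and 264 ± 49.7 CPM (log2 1.59 and 1.54, adjusted p = 0.000366 and 0.000529, edgeR), and *Anxa2* by 1.25 and 1.02 on the log2 scale. *Trim72*, the muscle membrane repair gene, was at 362, 140, 169 and 208 CPM without surgery, 6.80, 93.7, 77.3 and 117 after SHAM and 80.0, 144, 102 and 152 after Laminectomy. SHAM 1 was far below its group, as it was for *Cav3* and for *Cavin4* at 3.60 CPM. *Trim72* was called in SHAM (log2 -1.57, adjusted p = 0.0433, edgeR), a call lost without any of No operation 1, 3 or 4, SHAM 2 or 3, or Laminectomy 2, 3 or 4 (adjusted p 0.0536 to 0.118). The calls of *Anxa1* without No operation 1, 3 or 4 or SHAM 1 or 4 (adjusted p 0.0553 to 0.107) and *Cavin1* without SHAM 1 (log2 -0.49) were lost as well, both in SHAM, and with library size alone *Cavin1* was called in neither group (log2 -0.28 and -0.40). Of 8 fibroblast markers, 5 were called higher and 1 (*Dcn*) lower in each surgical group, and the 5 were not all the same genes. The markers summed to 6277 to 21480, 44530 to 60370 and 40950 to 46820 CPM in the 3 groups. Their part in the *Myof* and *Anxa2* values was not tested. With library size alone, the SHAM split was 5 higher and 4 lower.

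In the list of 14 costamere and scaffold genes, 3 were called higher and 8 lower in SHAM and 3 higher and 6 lower in Laminectomy mice. *Synm*, the synemin gene, dropped from 631 ± 129 CPM to 41.8 ± 17.3 and 56.4 ± 18.6 CPM (log2 -3.92 and -3.48, adjusted p = 8.91e-06 and 1.96e-05, edgeR). *Flnc*, encoding the muscle filamin, was at 3810 CPM in No operation 1 and 554.5 to 846.5 CPM in the other intact mice, and all SHAM (128 to 358.5 CPM) and Laminectomy mice (276 to 451 CPM) lay below (log2 -2.498 and -2.15, and -1.45 and -1.10 without No operation 1). The broadly made adhesion genes *Ilk* (log2 0.53 and 0.63), *Itgb1* (0.51 and 0.57) and *Tln1* (0.59 and 0.53) were called higher, near the threshold. *Ilk* in SHAM was lost without SHAM 4 (0.48), *Itgb1* in Laminectomy without No operation 2 or 4 (0.49 and 0.50), and *Itgb1* in SHAM and *Tln1* in both groups without any of several mice (adjusted p up to 0.0746 and 0.115). *Itga7* in SHAM without No operation 1 or SHAM 2 (adjusted p = 0.111 and 0.053, edgeR), *Des* in Laminectomy without No operation 1 (0.0542) and *Ank2* in Laminectomy without No operation 3 or 4 or Laminectomy 1, 3 or 4 (0.0616 to 0.0868) also lost their calls. With library size alone, the Laminectomy split was 5 higher and 4 lower.

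Of 11 genes of nitric oxide signalling, 3 were called higher and 4 lower in SHAM, where 25.7% and 25.1% of all genes were, and 3 higher and 4 lower in Laminectomy, where 24.2% and 24.4% were. Such shares are near the background and are no result about the list. *Nos2*, the inducible synthase of inflamed tissue, was at 5.59 to 10.5 CPM without surgery, 369, 76.7, 37.7 and 47.8 CPM after SHAM and 21.2, 6.63, 8.65 and 17.1 CPM after Laminectomy. It was called in SHAM (log2 4.06, adjusted p = 0.000669, and 2.77 with adjusted p = 0.000245 without SHAM 1, edgeR) and not in Laminectomy (log2 0.76, adjusted p = 0.365, edgeR), and every SHAM mouse lay above every Laminectomy mouse, a difference called by DESeq2 (log2 -3.31) and not by edgeR. Leukocyte markers, 6 of 7 tested being higher in both groups, summed to 521 to 1889 CPM in No operation, 4107 to 7569 in SHAM and 3241 to 5625 in Laminectomy mice, and their part was not tested. *Ddah1*, which clears an inhibitor of nitric oxide synthases, rose from 16.3 ± 15.7 to 70.2 ± 11.8 and 61.7 ± 8.13 CPM (log2 2.11 and 1.92, and 3.05 and 2.86 without No operation 1), and *Dynll1*, a dynein light chain that binds the *Nos1* product, by 0.88 and 0.96. *Prkg1*, the cGMP-dependent kinase, fell by 2.11 in both groups (adjusted p = 7.14e-06 and 9.88e-06, edgeR), and *Gucy1b1*, a subunit of the nitric oxide receptor, by 1.32 and 0.96, a call lost in Laminectomy mice with library size alone (adjusted p = 0.0555, edgeR). The call of *Nos3*, the endothelial synthase, was lost in SHAM without any of 7 mice (adjusted p 0.0542 to 0.117) and in Laminectomy without No operation 4 (0.0515). With library size alone the splits were 5 higher and 3 lower in SHAM and 4 higher and 1 lower in Laminectomy mice. Smooth muscle and pericyte markers summed to 2541 to 5798, 724 to 1925 and 1562 to 2211 CPM, with 5 and 3 of 8 called lower and 1 and 2 called higher, and their part was not tested.

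Of 11 other aquaporins and water channel partners, 8 passed the filter, and 1 was called higher and 3 lower in each surgical group, a share called near the 50.8% and 48.6% of all genes. *Aqp1*, the water channel of vessels and erythrocytes, fell from 770 ± 135 CPM to 207 ± 37.3 and 165 ± 49.9 CPM (log2 -1.90 and -2.22, adjusted p = 4.98e-05 and 2.68e-05, edgeR). *Aqp7*, the glycerol channel of fat cells, fell from 21.5 ± 4.70 to 5.004 ± 4.13 and 2.75 ± 1.49 CPM (log2 -2.10 and -2.96, adjusted p = 0.00632 and 0.00108, edgeR), with -2.85 in SHAM without SHAM 3. The third was the ion cotransporter gene *Slc12a2* (log2 -1.25 and -0.90), whose Laminectomy call was lost with library size alone (adjusted p = 0.081, edgeR). Endothelial markers summed to 745 to 923 CPM in No operation, 542 to 746.5 in SHAM and 504 to 743 in Laminectomy mice, with 4 and 3 of 8 called lower, and their part in *Aqp1* was not tested. *Trpv4*, an osmosensitive channel, rose in SHAM (log2 0.69, adjusted p = 0.00979, edgeR). *Kcnj10* was called higher in Laminectomy mice (log2 3.64, adjusted p = 0.0217, edgeR) on the strength of Laminectomy 2 and 3, and without both its log2 difference was -0.37 (adjusted p = 0.752, edgeR), without Laminectomy 2 alone 1.94 (adjusted p = 0.125, edgeR) and without No operation 2 4.74. It was also lost without No operation 1, 3 or 4 (adjusted p 0.0508 to 0.0575). With library size alone the Laminectomy split was 2 higher and 2 lower.

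**Figure D5:**
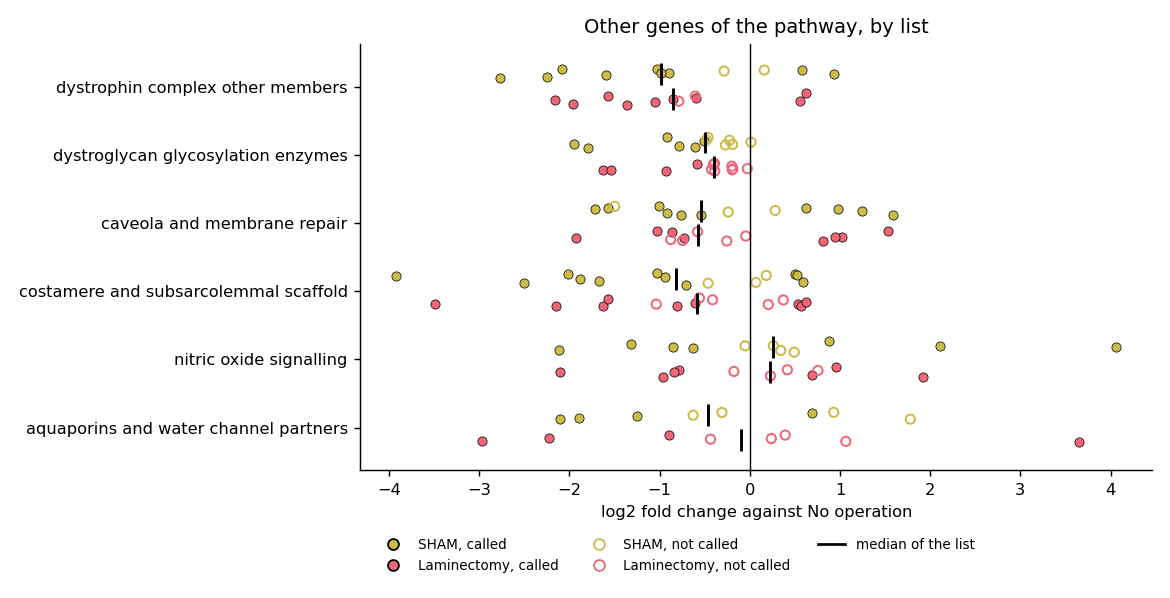
Log2 fold change against No operation of each tested gene in the 6 lists, for SHAM and Laminectomy mice, with called genes filled, others open and the list median as a bar. Medians lie between -0.99 and 0.26, nearer to 0 than those of the mature myofibre genes, and *Nos2* in SHAM and *Kcnj10* in Laminectomy lie furthest right.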

How the data were processed

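Total RNA of 12 mice was made into stranded poly(A) libraries (TruSeq Stranded mRNA) and sequenced in paired ends by the authors. Per the labels, the submitters' processing notes name STAR 2.6.1b, featureCounts 2.0.1 and DESeq2 1.30.1 with GRCm38. The values deposited by the authors are estimated counts per gene without normalization, since 10.22% are not whole numbers. They were rounded, by at most 0.5, and the 8 members held no such value. Whole counts had been assumed when the tests were planned.

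Genes were filtered with filterByExpr (14765 kept, 4231 removed), scaled by TMM (factors 0.849 to 1.134) and fitted for all 12 mice in 1 quasi-likelihood model with edgeR 4.0.16 in R 4.3.3, with Benjamini-Hochberg adjustment over all genes tested. The study used DESeq2, here an alternative (version 1.42.0, same filter). Calls needed an adjusted p under 0.05 and a log2 fold change past 0.5 either way. Per the series' design text, 3 of the 4 mice per group, chosen on RNA integrity and sequencing metrics, were kept for the study's own tests. The mice kept are not named in the sources used here, so all 4 were used. Replicates are separate mice by the labels. Counting intervals are not given, as reads carry no molecular identifiers and the spread between mice sets the error.

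The members, 6 pathway lists and 9 marker lists were chosen with earlier results of these data known. Named genes were the members, the 2 largest increases and 2 largest decreases per list and comparison among called genes with at least 1 CPM in the higher group, listed genes called between Laminectomy and SHAM, defining markers beside a result, and 3 nearest profiles per member (genes with at least 5 CPM on average in at least 1 group, pseudocount 1). *Dag1*, *Sntb1*, *Sgce*, *B4gat1*, *Anxa1*, *Cavin1*, *Cavin3*, *Cavin4*, *Itga7*, *Des*, *Ank2*, *Nos3*, *Slc12a2*, *Dcn*, *Slc1a3*, *Aldh1l1*, *Slc4a4* and *Mlc1* were named after their values were seen. Some listed genes that the rule names are not reported here, and they stay in the counts and medians of their lists. Coordinates and promoter windows are RefSeq (GRCm38.p6), exon lengths GENCODE vM21. The fit was tested on simulated counts with known changes. Alternatives covered other scalings, filters, DESeq2, pairs of groups alone, a fold threshold of 1, a replicate block and leaving out each mouse.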

Additional observations from a re-analysis of the deposited data

Results flagged for a closer look

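Each of the 8 genes was checked in each of 3 groups of 4 mice, 24 groups in all, for a mouse whose gap to the nearest other mouse took more of the group's range than Dixon's 95% critical value. Chance flags about 1 in 20 such groups. Laminectomy 1 stood out as the lowest of its group for *Dmd*, at 13.8 CPM against 31.4 to 32.5 CPM in the other Laminectomy mice. SHAM 1 stood out as the lowest for *Sgcb*, at 42.8 CPM against 77.1 to 81.5 CPM in the other SHAM mice. These mice also had the lowest mature myofibre sums of their groups, at 4622 and 3106 CPM.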

How the results depend on the processing

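A log2 fold threshold of 1 left 4589 called genes in SHAM and 4323 in Laminectomy mice, and it left 5 and 5 in the dystrophin complex list, 2 and 2 among glycosylation enzymes, 5 and 4 in the caveola and repair list, 6 and 4 in the costamere list and 4 and 2 in nitric oxide signalling. Between Laminectomy and SHAM, DESeq2 called 601 genes where edgeR called none, with 1 in the nitric oxide list (*Nos2*) and 1 in the aquaporin list (*Kcnj10*). Members lying higher in every Laminectomy than in every SHAM mouse numbered 0 to 4 with a mouse left out, and 4 only without Laminectomy 1. With Laminectomy 2 and 3 both left out, which leaves 2 mice in that group, *Aqp4* went to -3.15 relative to the myofibre median against No operation, and against SHAM to -0.13 and, relative to the median, -0.25, while *Sgcb* relative to the median against SHAM went to 0.23. Scaling by library size alone moved the median of all genes to 0.25 in SHAM and 0.33 in Laminectomy mice, and 66% and 69.9% of called genes were then higher, against 50.6% and 49.8%. At least 10 counts in every mouse left no value for *Aqp4*. Leaving out single mice gave 6962 to 7636 called genes in SHAM and 6530 to 7414 in Laminectomy.

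Between same-numbered mice of different groups, deviations from the group mean correlated at -0.228 to 0.352 (12 pairs, 7 over 0.1). These values cannot decide whether the numbers pair the samples, and the main fit did not pair them. With a replicate block, 7441 genes were called in SHAM and 7153 in Laminectomy mice, 0 between them, and the lists held 9, 6, 8, 10, 6 and 4 calls in SHAM and 9, 4, 8, 9, 7 and 4 in Laminectomy mice, in the order of the text. *Trim72*, *Anxa1*, *Itga7* and *Nos3* were not called in SHAM mice with the block (adjusted p = 0.0636, 0.0588, 0.0596 and 0.0654, edgeR).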
